A study of Mus musculus with 6 samples.

Results

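The Fc gamma receptors bind the constant part of IgG. All 4 mouse genes of the family (Fcgr1, Fcgr2b, Fcgr3 and Fcgr4) were taken by gene ID from the 24532 genes of the tables, and all 4 were found. They were followed through 6 RNA sequencing libraries of cells sorted from the bone marrow of C57BL/6J mice, with 2 biological duplicates in each of 3 populations. BaP, the basophil progenitor gate, took Lineage- cells with CD34 on their surface, no ckit and binding of MAR1. The gates MAR1HI and MAR1INT took CD200R3+ cells without CD34, ckit or Lineage markers, and were split by high or intermediate MAR1 staining. All populations thus shared the lack of Lineage markers and ckit and the binding of MAR1. The labels used here give no age, sex or number of mice per library.

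Signalling through IgG receptors depends on the balance between activating and inhibitory members. FcγRI (Fcgr1), FcγRIII (Fcgr3) and FcγRIV (Fcgr4) are activating receptors that need the common gamma chain, made from Fcer1g, which carries the tyrosine motifs and also serves the high-affinity IgE receptor. FcγRIIb (Fcgr2b) carries its own inhibitory motif and recruits the lipid phosphatase SHIP-1, made from Inpp5d. Mature mouse basophils are known to carry FcγRIIb and FcγRIII, whereas FcγRI and FcγRIV are known from monocytes, macrophages and, for FcγRIV, neutrophils. MAR1 was raised to the alpha chain of the IgE receptor, made from Fcer1a, and has been reported to bind FcγRI and FcγRIV as well, so the 2 latter genes bear on the reagent that defined these populations.

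The implied depth was alike, between 4.75 and 5.28 gigabases of aligned sequence a library, and 9604 to 11544 genes reached 1 TPM, a level corrected for transcript length and scaled to the same total in each library. The basophil label was set beside 12 marker genes, all above 0 in all 6 libraries. That alone does not single out basophils, as none of 14 neutrophil markers was at 0 in both libraries of a group. Mcpt8, the basophil protease, stood between 2161 and 6416 TPM, and the summed list between 13508 and 22466 TPM. Differences below are in log2(TPM + 1) with the limma test, called at an adjusted p under 0.05 over 11337 genes. On this scale a low gene's change is understated. In bulk samples, fewer cells that make a transcript and less transcript per cell cannot be told apart. Of the 12 basophil markers, 6 were called higher and 4 lower in MAR1INT minus BaP (11.1% and 20.4% of all tested genes). In MAR1INT minus MAR1HI 2 were higher and 3 lower (2.29% and 14.5%), and in MAR1HI minus BaP 5 and 0 (1.83% and 0.662%).

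The inhibitory receptor and the activating FcγRIII were the abundant members in every library. Fcgr3 (gene 14131, mm10 chromosome 1, 171051169 to 171059403, minus strand) gave 401 and 450.5 TPM for BaP replicates 1 and 2, 474 and 635 for MAR1HI, and 633 and 496 for MAR1INT. Both BaP libraries lay below all 4 CD34-negative libraries, and the MAR1HI and MAR1INT libraries overlapped. Its group levels were 426 ± 34.8 (SD, n = 2), 555 ± 114 and 564 ± 96.8 TPM. In rank Fcgr3 lay between the 237th and the 334th most abundant gene of a library.

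Fcgr2b (gene 14130, chromosome 1, 170960559 to 170976071, minus strand) was likewise lowest in BaP, at a lower level. It measured 149.5 and 132 TPM in the duplicates of BaP, 164 and 215 in those of MAR1HI, and 198 and 175 in those of MAR1INT, with group levels of 141 ± 12.3, 189 ± 35.9 and 187 ± 15.7 TPM (SD, n = 2). Here too the BaP libraries were the lowest and the CD34-negative groups overlapped. None of the contrasts was called for either gene. Fcgr3 differed by 0.37 between MAR1HI and BaP (95% interval -0.12 to 0.86, adjusted p = 0.423), by 0.40 between MAR1INT and BaP (-0.092 to 0.89, adjusted p = 0.195) and by 0.029 between MAR1INT and MAR1HI (-0.46 to 0.52, adjusted p = 0.947). Fcgr2b differed by 0.42 (-0.082 to 0.91, adjusted p = 0.372), 0.40 (-0.094 to 0.90, adjusted p = 0.196) and -0.012 (-0.51 to 0.49, adjusted p = 0.979) in the same contrasts. The median tested gene differed by 0.24, -0.16 and -0.36 in MAR1HI minus BaP, MAR1INT minus BaP and MAR1INT minus MAR1HI. With this scaling the small differences of this pair lay near the shift of the whole table in the first contrast and above it in the others. That shift depends on the scaling, and the sign of the MAR1INT minus MAR1HI difference turned with it. Quantile normalization gave 0.042 for Fcgr2b and -0.015 for Fcgr3. Scaling by the median of ratios gave 0.28 and 0.32.

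The ratio of the activating to the inhibitory gene of this pair differed less between the populations than between the BaP duplicates. The Fcgr3 level was that of Fcgr2b times 2.68 and 3.41 in BaP, 2.89 and 2.96 within MAR1HI, and 3.20 and 2.83 in MAR1INT. The BaP duplicates spanned the values of all other libraries. The log2 ratio of Fcgr2b to Fcgr3 averaged -1.59, -1.54 and -1.58 in the 3 groups, and no test was made of it. These genes are close paralogs. Of the distinct 50-base stretches of the protein-coding Fcgr3 transcripts, 10.2% also occurred in Fcgr2b transcripts, and 4.48% of those of Fcgr2b occurred in Fcgr3. At 100 bases the shares were 2.70% and 1.14%. A read that lies wholly within such a stretch does not by itself show its gene. The split between Fcgr2b and Fcgr3 is thus uncertain, to an extent that was not measured. Of the Fcgr2b stretches of 50 bases, 2.24% also occurred in transcripts of genes outside the family. Fcgr1 and Fcgr4 shared 0 such stretches of 50 bases with the other members or with other genes.

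**Figure D1:**
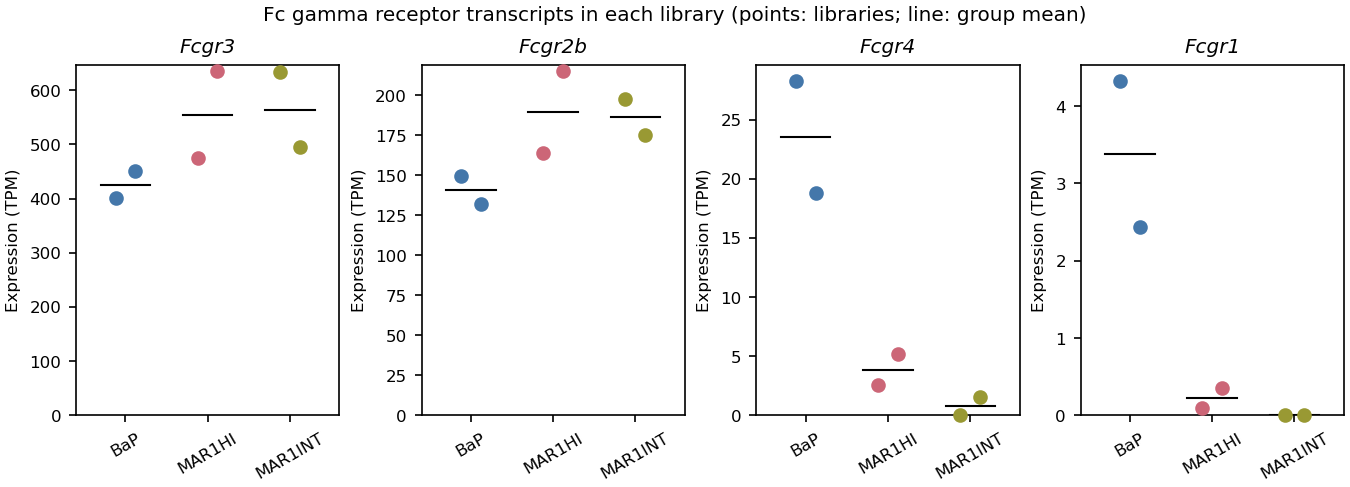
Expression (TPM, each axis from 0) of the Fc gamma receptor genes, 1 panel a gene and 1 point a library, with the group mean as a line. Fcgr3 and Fcgr2b stand lowest in BaP, and Fcgr4 and Fcgr1 stand highest in BaP with no overlap. For Fcgr1 this was set by the filter on low values.

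The other activating receptors were highest in BaP. Fcgr4 (gene 246256, chromosome 1, 171018926 to 171029761, plus strand) measured 28.2 and 18.8 TPM in the duplicates of BaP, 2.58 and 5.17 in those of MAR1HI, and 0 and 1.51 in those of MAR1INT. The 3 groups did not overlap, with BaP highest and MAR1INT lowest. The mean read depth per base of its transcript was 84.0 and 54.2 in BaP, 7.52 and 12.6 within MAR1HI, and 0 and 3.80 in MAR1INT. Between MAR1INT and BaP it fell by 3.92 on the log2 scale (SE 0.55, adjusted p = 0.000914). Between MAR1HI and BaP the difference was -2.36 (SE 0.55, adjusted p = 0.0618) and between MAR1INT and MAR1HI -1.57 (SE 0.55, adjusted p = 0.0847), and neither was called.

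Fcgr1 (gene 14129, chromosome 3, 96282909 to 96293969, minus strand), the gene of the high-affinity IgG receptor, was the scarcest member. It stood at 4.32 and 2.44 TPM in BaP, 0.0992 and 0.355 within MAR1HI, and was listed at 0 in both MAR1INT libraries. Its read depth per base was 12.9 and 7.03 in BaP and 0.289 and 0.864 in MAR1HI. BaP was highest and MAR1INT lowest, again with no overlap. It fell by 2.10 between BaP and MAR1INT (SE 0.40, adjusted p = 0.00439), a size that depends on the pseudocount because MAR1INT is at 0. The difference between MAR1HI and BaP was -1.81 (SE 0.40, adjusted p = 0.0530), and between MAR1INT and MAR1HI -0.29 (95% interval -1.19 to 0.62, adjusted p = 0.679). Fcgr1 passed the filter on low values, 1 TPM in 2 libraries, only through BaP. Its direction and its lack of overlap in contrasts with BaP were thus set by that filter. A value of 0 in these tables may be a failed estimate. In MAR1INT replicates 1 and 2, 5 and 3 genes were listed at 0 while all 5 other libraries held them at 20 TPM or more.

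Of the 4 members, 2 (Fcgr1 and Fcgr4) were called lower and 0 higher in MAR1INT than in BaP. In that contrast 20.4% of tested genes were called lower and 31.5% in either direction. The direction of Fcgr1 was set by the filter on low values, so of these 2 only Fcgr4 could have been called either way. In MAR1HI minus BaP 0 members were called, where 2.49% of tested genes were called, 0.662% lower and 1.83% higher. In MAR1INT minus MAR1HI 0 members were called against 16.8%, with 14.5% lower and 2.29% higher. At an unadjusted p under 0.05 limma gave 2 members (Fcgr1 and Fcgr4) in MAR1HI minus BaP, beside 1980 of the 11337 tested genes, and 1 (Fcgr4) in MAR1INT minus MAR1HI, beside 3495. Groups that do not overlap were common among duplicates. MAR1HI did not overlap BaP for any of the 4 members, 2 of them higher and 2 lower, against 53.5% of tested genes (38.2% higher and 15.3% lower). The same held for MAR1INT and BaP, against 68.9% (29.7% higher and 39.1% lower). For Fcgr1 the lack of overlap with BaP was set by the filter in both contrasts, so only the other members could have overlapped. MAR1INT and MAR1HI did not overlap for 2 members, both lower, against 55.0% (12.7% higher and 42.2% lower). The calls between MAR1HI and BaP depended on the setting. The direction of Fcgr1 in that contrast was again set by the filter, at the unadjusted p above and wherever it was called below. Fitted with only those groups, where 1062 of all tested genes were called in place of 282, both Fcgr1 (adjusted p = 0.00266) and Fcgr4 (adjusted p = 1.34e-06) were called, and so they were without MAR1INT replicate 1 (0.00285 and 2.20e-06, beside 1087 genes) and without MAR1INT replicate 2 (0.00300 and 3.16e-06, beside 1092 genes). Fcgr4 alone was also called with FPKM (adjusted p = 0.0373), with a mean of 5 TPM or more (0.0469) and with quantile normalization (0.0400). Without MAR1INT replicate 2, Fcgr4 was also called lower in MAR1INT than in MAR1HI (-2.23, adjusted p = 0.000231). Between MAR1INT and BaP, Fcgr4 kept its call in all 14 alternatives (adjusted p at most 0.0240), and Fcgr1 lost it with quantile normalization (-1.09, adjusted p = 0.0591). Across the alternatives the change of Fcgr4 ran from -5.85 to -3.26 and that of Fcgr1 from -5.07 to -1.09.

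**Figure D2:**
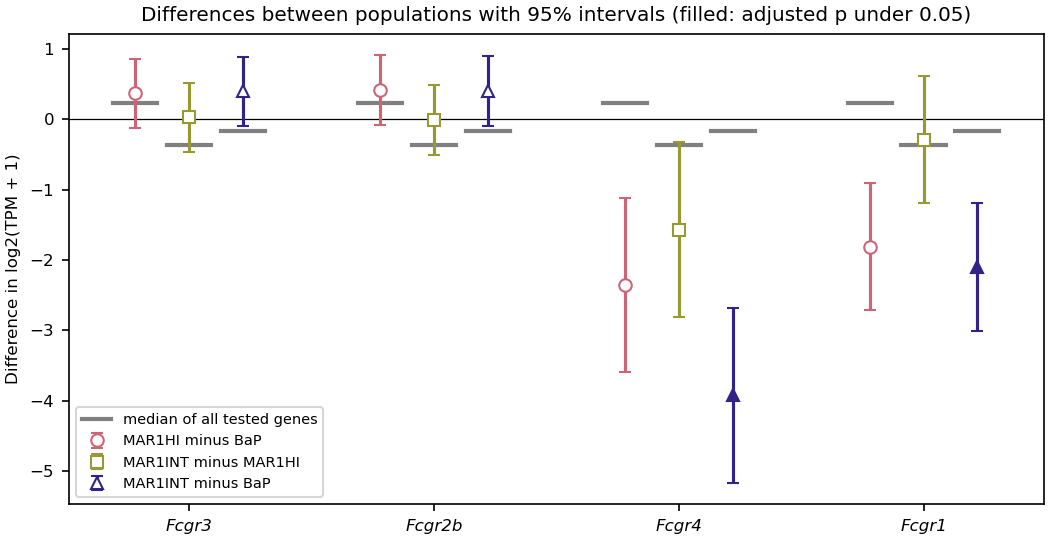
Differences in log2(TPM + 1) for each Fc gamma receptor gene in the 3 contrasts, with 95% intervals from limma and, as grey marks, the median of all tested genes. Filled symbols (Fcgr4 and Fcgr1 in MAR1INT minus BaP) passed the adjusted p of 0.05, and the intervals of Fcgr3 and Fcgr2b all span 0.

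The summed level of the family was carried by Fcgr3. It was 583 and 604 TPM in the BaP libraries, 641 and 856 in those of MAR1HI, and 831 and 673 in those of MAR1INT. That gene made up 68.8% and 74.6% of the sum in BaP, 74.0% and 74.2% within MAR1HI, and 76.2% and 73.7% in MAR1INT. Fcgr4 made up 4.84% and 3.11% in BaP, 0.403% and 0.604% within MAR1HI, and 0 and 0.225% in MAR1INT. The order of levels was Fcgr3, Fcgr2b, Fcgr4 and Fcgr1 in all libraries but MAR1INT replicate 1, where the last pair was tied at 0.

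Against the IgE receptor, the level of Fcgr3 changed places. Fcer1a, whose product MAR1 was raised to, measured 776 and 892 TPM in the duplicates of BaP, 1211 and 1446 in those of MAR1HI, and 534 and 422 in those of MAR1INT. Per transcript length, Fcgr3 reached 0.517 and 0.505 times the Fcer1a level in BaP, 0.392 and 0.439 times in MAR1HI, and 1.19 and 1.17 times in MAR1INT. Fcgr3 thus lay above Fcer1a in both MAR1INT libraries and below it in the other 4. Fcer1a was lower in MAR1INT than in MAR1HI (-1.48, adjusted p = 0.00155), the contrast along which the MAR1 gates were drawn, and lower than in BaP (-0.81, adjusted p = 0.0141). The change of one gene was not tested against that of the other. The genes of the other proteins reported to bind MAR1, Fcgr1 and Fcgr4, together came to 4.19% and 2.38% of the Fcer1a level in BaP, 0.221% and 0.382% within MAR1HI, and 0 and 0.358% in MAR1INT. Transcript levels say nothing on how much antibody each protein bound.

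**Figure D3:**
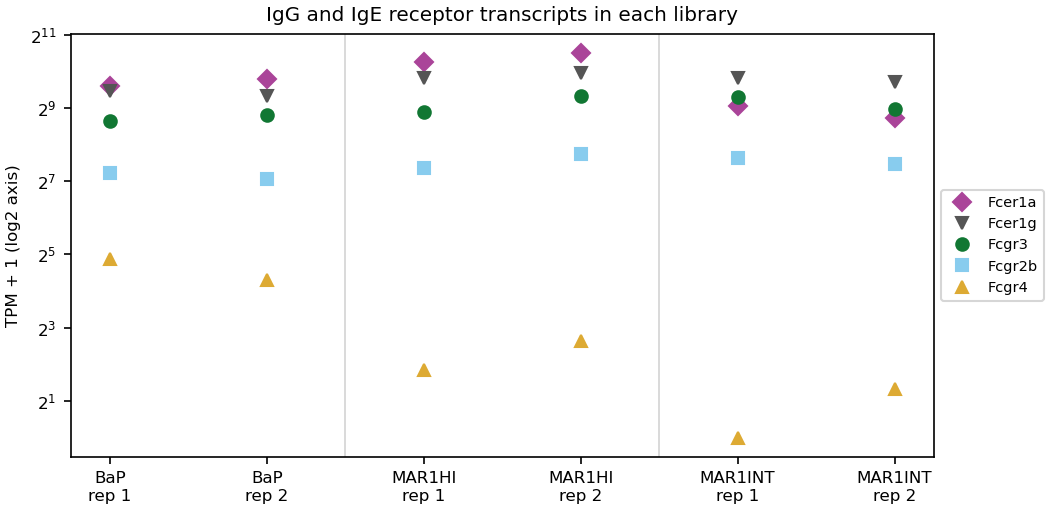
TPM + 1 (log2 axis) of the IgG receptor genes Fcgr3, Fcgr2b and Fcgr4, the IgE receptor gene Fcer1a and the shared gamma chain gene Fcer1g in each of the 6 libraries. Fcgr3 lies above Fcer1a in MAR1INT only, and Fcgr4 steps down from 28.2 and 18.8 TPM in BaP to 0 and 1.51 in MAR1INT.

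The sequences upstream of the 4 genes are shown because Fcgr1 and Fcgr4 were called lower in MAR1INT than in BaP and the other members were not called. Each is the 250 bases before the annotated transcript start, from RefSeq on GRCm38.p6, with all 4 genes matched, and the second annotated start of Fcgr3, 9 bases downstream, is left out. Capitals mark GAGGAA on either strand, a core that the myeloid factor PU.1 is known to bind, and TTCNNNGAA, the form bound by STAT factors.
Fcgr1 (chr3:96293970-96294219, minus strand): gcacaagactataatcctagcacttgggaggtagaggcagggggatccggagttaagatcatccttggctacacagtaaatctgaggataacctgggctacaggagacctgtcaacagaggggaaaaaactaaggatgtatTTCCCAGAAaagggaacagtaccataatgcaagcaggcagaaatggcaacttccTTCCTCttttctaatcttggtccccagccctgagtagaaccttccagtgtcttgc
Fcgr4 (chr1:171018676-171018925, plus strand): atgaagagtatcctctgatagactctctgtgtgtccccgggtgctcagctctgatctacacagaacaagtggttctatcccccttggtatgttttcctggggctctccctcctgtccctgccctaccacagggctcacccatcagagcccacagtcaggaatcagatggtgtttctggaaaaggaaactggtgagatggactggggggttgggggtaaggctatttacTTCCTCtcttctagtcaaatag
Fcgr3 (chr1:171059404-171059653, minus strand): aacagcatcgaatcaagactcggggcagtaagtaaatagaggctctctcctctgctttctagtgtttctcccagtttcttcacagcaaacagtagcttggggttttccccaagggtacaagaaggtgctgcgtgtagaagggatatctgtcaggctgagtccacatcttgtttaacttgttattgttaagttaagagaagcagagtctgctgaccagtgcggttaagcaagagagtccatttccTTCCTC
Fcgr2b (chr1:170976072-170976321, minus strand): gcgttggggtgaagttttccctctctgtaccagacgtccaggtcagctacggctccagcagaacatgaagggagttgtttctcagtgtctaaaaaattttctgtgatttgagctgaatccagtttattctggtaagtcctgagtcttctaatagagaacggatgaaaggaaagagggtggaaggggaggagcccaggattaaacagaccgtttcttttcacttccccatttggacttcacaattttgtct
GAGGAA, read on the opposite strand as TTCCTC, began 55 bases before the start of Fcgr1, 22 before that of Fcgr4 and 6 before that of Fcgr3, and these letters were not in the Fcgr2b window. Of 27025 upstream windows of the same length in the table, 23.1% hold GAGGAA. TTCNNNGAA occurred in the Fcgr1 window alone, 109 bases before the start, and in 7.2% of all windows. AGATAA, a form bound by GATA factors (10.3% of windows), was found in none of the 4. TTGCNNAA, a C/EBP form (9.6%), was in the Fcgr3 window alone, 28 bases before the start. TATAAA, the TATA box (13.0%), was found in none. The motifs were searched on both strands and did not overlap. Fcgr3, which was not called, held GAGGAA as did Fcgr1 and Fcgr4. A part of these motifs in the calls was not tested.

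The positions of the 4 genes are given as a description, and a part of position in the calls was not tested. Fcgr2b, Fcgr4 and Fcgr3 lie side by side on chromosome 1, with Fcgr4 between the others, 42855 bases from Fcgr2b and 21408 bases from Fcgr3. The only member called there was thus flanked by a pair that was not called. Among listed neighbours of the cluster, Fcrla and Fcrlb, which encode Fc receptor-like proteins, lay at 0.118 to 1.80 TPM in all libraries and were not called in any contrast. Cfap126, a cilium gene on the other side, stood at 4.76 and 4.21 TPM in BaP, 1.90 and 2.92 in MAR1HI and was listed at 0 in MAR1INT (MAR1INT minus BaP -2.45, adjusted p = 0.00197). Mir6546, next to Fcgr3, was under 1 TPM in every library and was not tested. Fcgr1 on chromosome 3 has histone genes on one side. H2bc18 (MAR1INT minus BaP -1.62, adjusted p = 0.000692) and H3c13 (-1.12, adjusted p = 0.00622), 12717 and 13754 bases away, were called lower. They have near-identical copies and their levels are uncertain. On the other side lie Terc, the telomerase RNA (-0.59, adjusted p = 0.271), and BC107364, which was listed at 0 throughout.

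The gamma chain gene was abundant in all libraries. Fcer1g measured 710 and 644 TPM in the duplicates of BaP, 906 and 986 in those of MAR1HI, and 900.0 and 842 in those of MAR1INT. Its differences were not called (MAR1HI minus BaP 0.48, adjusted p = 0.195, MAR1INT minus BaP 0.36, adjusted p = 0.142). Ms4a2, the beta chain of the IgE receptor, stood between 529 and 683 TPM and was not called in any contrast, and Cd247, the zeta chain that can stand in for the gamma chain in some lymphocytes, stayed under 1 TPM.

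Genes listed around these receptors were more often called higher than lower in MAR1INT than in BaP. Of 60 genes in 5 lists (shared chains, activating signalling, inhibitory signalling, phagocytosis effectors and other antibody-binding receptors), 52 were tested. In MAR1INT minus BaP 20 were called higher and 4 lower (38.5% and 7.69%), against 11.1% and 20.4% of all tested genes, and their median difference was 0.48 against -0.16. In MAR1HI minus BaP 6 were called higher and 0 lower (11.5%, against 1.83% of all tested genes called higher), with a median of 0.57 against 0.24. With median-of-ratios scaling 1 activating and 1 other-receptor gene were called in this contrast, and with the replicate block or a pseudocount of 0.1 only 1 other-receptor gene. In MAR1INT minus MAR1HI 2 were called higher, Plcg1 and Lgals3, and 1 lower, Fcer1a. There the genes called higher became 6 activating, 2 inhibitory, 2 phagocytosis and 1 other-receptor gene with median-of-ratios scaling, and 3, 1, 1 and 1 with quantile normalization. No test was made of the lists as such, and they were chosen with earlier results of these data known. The background split depends on the scaling. In MAR1INT minus BaP 1263 genes were called higher and 2311 lower, with quantile normalization 2302 and 1877, and the lists then had 11 activating, 4 inhibitory, 5 phagocytosis and 3 other-receptor genes higher, with 1 activating and 1 other-receptor gene lower.

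Among activating signalling genes, 9 of 18 tested members rose and 2 fell between BaP and MAR1INT. The adaptor Gab2 rose most, from 30.5 and 36.1 TPM in BaP to 57.3 and 91.2 in MAR1HI and 115 and 127 in MAR1INT (MAR1INT minus BaP 1.83, adjusted p = 0.00142). The exchange factor Vav3 had the largest difference and fell, from 10.4 and 11.2 TPM in BaP to 3.63 and 2.63 in MAR1HI and 0 and 1.96 in MAR1INT (-2.77, adjusted p = 0.00498). Syk, the kinase that docks on the gamma chain, was among those that rose (0.86, adjusted p = 0.0317), and Lyn, which phosphorylates both kinds of receptor, was not called (0.73, adjusted p = 0.0542). Between MAR1HI and BaP, 3 members passed narrowly, Fyn (1.01, adjusted p = 0.0436), Btk (1.26, adjusted p = 0.0486) and Prkcd (1.23, adjusted p = 0.0438). Of this list 1 gene was called there with median-of-ratios scaling, and 0 with the replicate block, a pseudocount of 0.1 or no filter on low values.

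Among inhibitory signalling genes 4 of 10 rose and 0 fell between BaP and MAR1INT. Inpp5d, whose product docks on FcγRIIb, rose from 106 and 123 TPM in BaP to 214 and 199.6 in MAR1INT, with 147 and 193 in MAR1HI (0.86, adjusted p = 0.0178). Pag1, a membrane adaptor that holds the kinase Csk, rose from 0.942 and 1.53 TPM to 15.9 and 15.0 (2.89, adjusted p = 0.00120), and Csk itself by 1.15 (adjusted p = 0.00750). Dok2, an adaptor that restrains Ras signalling, was the remaining one and the only member that rose between MAR1HI and BaP (1.27, adjusted p = 0.0482). Activating and inhibitory genes were thus both called higher.

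Of phagocytosis effectors 6 of 14 tested members rose and 0 fell in MAR1INT minus BaP. Gsn, the actin-severing protein gelsolin (1.33, adjusted p = 0.00133), and Pld1, a phospholipase D (1.04, adjusted p = 0.0315), differed most, and Gsn was the only member that rose between MAR1HI and BaP (1.08, adjusted p = 0.0304). Among other antibody-binding receptors 1 of 8 tested members rose and 2 fell. Lgals3, an IgE-binding lectin, rose from 78.0 and 77.2 TPM in BaP to 227 and 264 in MAR1HI and 503 and 520 in MAR1INT (MAR1INT minus BaP 2.70, adjusted p = 5.55e-05). Fcgrt, the neonatal IgG receptor, fell from 3.01 and 1.77 TPM to 0.451 and 0 (-1.47, adjusted p = 0.0256), and Fcer1a was the other that fell. Fcgrt, like Fcgr1, passed the filter only through BaP, so its direction there was set by that filter. Without BaP replicate 1 the activating, inhibitory, phagocytosis and other-receptor genes called in MAR1INT minus BaP numbered 6, 1, 2 and 1, and without BaP replicate 2 they numbered 7, 2, 2 and 2. Without MAR1INT replicate 1 the inhibitory and phagocytosis genes called numbered 2 each, and without MAR1INT replicate 2 the other-receptor genes 1. In MAR1HI minus BaP, 0 genes of these lists were called when any single library of those groups was left out. Without either MAR1INT library the activating and inhibitory genes called there numbered 7 and 3.

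**Figure D4:**
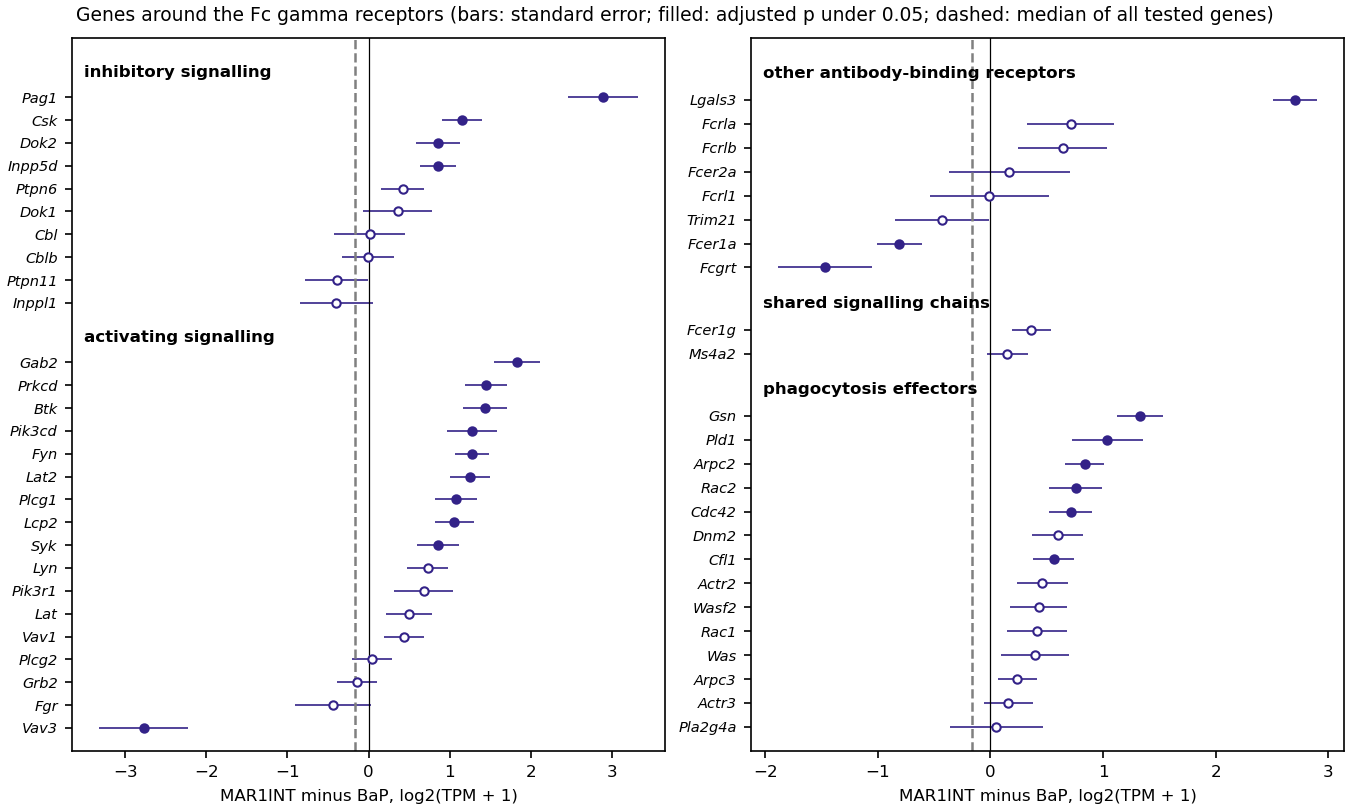
MAR1INT minus BaP differences in log2(TPM + 1) of 51 of the 52 tested genes around the Fc gamma receptors, by list, with standard errors from limma. Filled points passed the adjusted p of 0.05, and 20 of those shown lie above 0 and 3 below, beside a median of -0.16 for all tested genes (dashed line).

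The genes most like each receptor over the 6 libraries were named by Pearson's r of log2(TPM + 1), as a description. The libraries share their populations, so r mostly follows the differences between groups, and with 6 values many genes come close. For Fcgr1 they were Prg3 (r = 0.998), an eosinophil granule gene, Bcl2a1d (0.995), a gene with near-identical copies whose level is uncertain, and Treml4 (0.994), a receptor of myeloid cells. Treml4 measured 6.23 and 4.08 TPM in the duplicates of BaP, 0 and 0.639 in those of MAR1HI, and 0 in those of MAR1INT. For Fcgr4 they were Retsat (0.994), a retinol saturase, Ramp1 (0.993), a receptor-modifying protein, and Cct6a (0.992), a chaperonin subunit. Ramp1 measured 30.5 and 28.1 TPM in the duplicates of BaP, 5.34 and 8.79 in those of MAR1HI, and 0.427 and 2.90 in those of MAR1INT. For Fcgr2b they were the co-chaperone Dnajb12 (0.996), the exchange factor Dock11 (0.995) and Rp9 (0.994), and for Fcgr3 Dmtf1 (0.997), Ciz1 (0.997) and Supt5 (0.996). At r over 0.99 there were 14, 5, 4 and 12 genes for Fcgr1, Fcgr4, Fcgr2b and Fcgr3.

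Some markers of other marrow cells known to carry FcγRI or FcγRIV were also called lower than in BaP. Of all tested genes, 0.662% were called lower in MAR1HI minus BaP and 20.4% in MAR1INT minus BaP. Any marker that passed the filter on low values only through BaP could only be lower there, and such markers were not set apart. Of 15 monocyte and macrophage markers 12 were tested, of which 5 were lower in MAR1HI and 10 in MAR1INT than in BaP, and 0 were higher. Their summed level was 310 and 370 TPM in the BaP libraries, 104 and 97.1 in those of MAR1HI, and 133 and 120 in those of MAR1INT. Csf1r, the macrophage growth factor receptor, measured 39.4 and 29.6 TPM in the duplicates of BaP, 3.70 and 4.20 in those of MAR1HI, and 1.89 and 6.17 in those of MAR1INT. Ly6c2 stood between 52.4 and 234 TPM and Adgre1 between 6.51 and 47.6, and Adgre1 was higher in MAR1INT than in MAR1HI (2.18, adjusted p = 0.00741). Mertk, Spic, Cd300e and Ms4a7 were listed at 0 in both MAR1INT libraries, and Cd300e in both MAR1HI libraries. All 14 neutrophil markers were tested, and 2 were lower in MAR1HI and 6 in MAR1INT than in BaP. Their sum was 6410 and 11792 TPM in the BaP libraries, 5220 and 4048 in those of MAR1HI, and 4221 and 3662 in those of MAR1INT, with none listed at 0. S100a8 (894 to 2798 TPM) and S100a9 (628 to 1836) were the most abundant and not called, and Mpo fell from 1674 and 2138 to 113 and 65.1. Whether such cells were in the gates, and any part of them in the fall of Fcgr1 and Fcgr4, was not tested.

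Markers of other lineages also differed, beside 20.4% of all tested genes called lower and 11.1% called higher in MAR1INT minus BaP. The limit set by the filter on low values holds for these lists too. Eosinophil markers (8 of 9 tested) summed to 2166 and 1152 TPM in the BaP libraries, 109 and 158 in those of MAR1HI, and 213 and 349 in those of MAR1INT. In MAR1INT minus BaP 5 were lower and 2 higher (Siglecf and Ccr3). Prg2 (1584 and 934 TPM in BaP, 1.95 and 70.0 in MAR1INT) and Ear1, whose relatives make its level uncertain, were high in BaP, and Epx, Prg3, Ear6 and Il5ra were at 0 in MAR1INT. Dendritic cell and MHC class II markers (7 of 11 tested) summed to 993 and 374 TPM in the BaP libraries, 80.0 and 66.4 in those of MAR1HI, and 19.6 and 36.7 in those of MAR1INT, and 6 were lower in MAR1INT. Cd74, H2-Ab1 and H2-Eb1 led them, and Flt3, Xcr1, Clec9a, Zbtb46 and Ccr9 were at 0 in MAR1INT. B and plasma cell markers, led by Cd79b, Cd79a and Jchain, summed to 14.8 to 46.9 TPM with 0 of 5 tested called in MAR1INT minus BaP. T and NK cell markers (3 of 10 tested, 2 lower in MAR1INT than in BaP) summed to 36.9 to 388 TPM, nearly all of it Nkg7, with Cd3d and Klrd1 next at 4.03 TPM or less, and Cd3g was at 0 throughout. Among mast cell markers, Cpa3, shared with basophils, gave nearly all of the sum, Tpsb2 stayed under 2 TPM, and the tryptase gene Tpsab1 was at 0 in all libraries. Kit stood at 44.9 and 38.6 TPM in BaP, whose gate excluded ckit on the surface, at 2.94 and 4.36 in MAR1HI and under 1 TPM in MAR1INT. Whether such cells were in the gates, and any part of them in the results, was not tested.

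**Figure D5:**
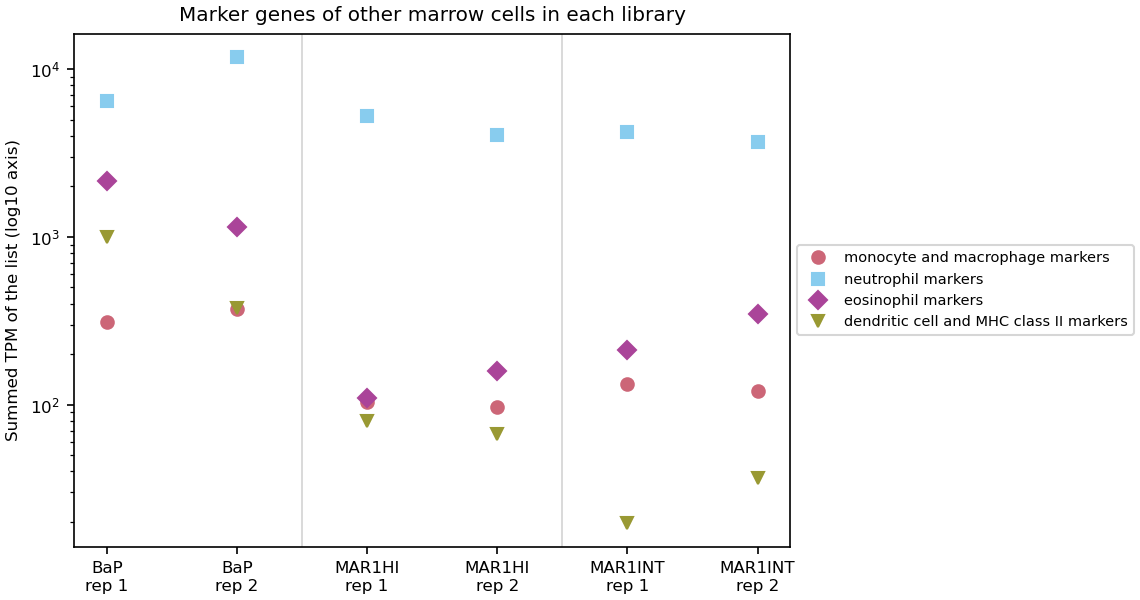
Summed TPM (log10 axis) of marker lists of monocytes and macrophages, neutrophils, eosinophils, and dendritic cells with MHC class II genes in each library. The BaP libraries are highest for all 4 lists. They are also highest for the T and NK cell and mast cell lists, which are not plotted, and not for the basophil or the B and plasma cell list.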

How the data were processed

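The 6 deposited gene tables hold, per the file headers, coverage (a signal of read depth over the transcripts of a gene), FPKM and TPM for each gene, with 1 table a library. The authors' TPM column summed to 1000000 in each. Per the submitters' processing notes the authors used Trimmomatic, HISAT2 and StringTie with mm10, and versions, options and annotation were not given in the sources used here. Gene IDs were joined to symbols with the RefSeq table of GRCm38.p6 (24462 of 24532 matched, 99.2% of them overlapping the reference interval), and IDs listed in several parts were summed. The ratio of FPKM to coverage gave the aligned bases. Read counts were not used here, so no counting interval is given and precision rests on 2 libraries a group.

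The 11337 genes that reached 1 TPM in 2 or more libraries were fitted on log2(TPM + 1) by limma 3.58.1 (R 4.3.3, eBayes with a trend), 1 term a group over all 6 libraries, 3 residual degrees of freedom, two-sided, with Benjamini-Hochberg adjustment over all tested genes. The script was tested on simulated data. The labels call the duplicates biological, without naming animals.

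The members and gene lists were chosen with earlier results of these data known. Named genes were the 4 members, the 2 tested genes of each pathway list with the largest MAR1INT minus BaP difference, the leading markers of other cells, the 3 genes most like each member by Pearson's r, and the 2 nearest listed genes on each side. Plcg1, Syk, Lyn, Fyn, Btk, Prkcd, Inpp5d, Dok2, Siglecf and the markers listed at 0 fall outside that rule and were added after the values were seen. Alternatives were FPKM, a pseudocount of 0.1, other filters and scalings, fits of 2 groups, a replicate block and leaving out each library. Of the activating signalling list 1 gene is counted but not reported here. Shared stretches were counted in GENCODE M21 transcripts.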

Additional observations from a re-analysis of the deposited data

How the results depend on the processing

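Between MAR1INT and BaP, 2 members were called, and 1 with a mean of 5 TPM or more (Fcgr1 was then not tested) and with quantile normalization. Leaving out each library gave 2 throughout. In MAR1HI minus BaP 0 were called, 1 with FPKM, with a mean of 5 TPM or more and with quantile normalization, 2 with only the 2 groups compared, and 0 to 2 without 1 library. In MAR1INT minus MAR1HI 0 were called, and 0 to 1 without 1 library. Over all genes, 282 were called in MAR1HI minus BaP, 1900 in MAR1INT minus MAR1HI and 3574 in MAR1INT minus BaP. With no filter on low values these were 4, 562 and 2358. In MAR1HI minus BaP they were 1062 with only the 2 groups compared and 89 with a pseudocount of 0.1. Without 1 library they ran from 3 (either MAR1HI library) to 1092, from 239 (MAR1HI replicate 2) to 2611, and from 1581 (BaP replicate 1) to 4024. The cause was not tested.

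In MAR1INT minus MAR1HI, where none of the 4 genes was called, signs turned. Fcgr1 went from -0.29 to 0.49 with quantile normalization. Fcgr2b went from -0.012 to 0.042 with quantile normalization and to 0.28 with median-of-ratios scaling, and ran from -0.21 to 0.18 without 1 library. Fcgr3 went from 0.029 to -0.015 with quantile normalization, and ran from -0.18 to 0.24 without 1 library. The median tested gene moved with the scaling, from -0.36 to 0.11 (quantile) and -0.11 (median of ratios). The split of calls moved too: in MAR1HI minus BaP from 207 higher and 75 lower to 194 and 135 (FPKM), 235 and 178 (quantile) and 135 and 90 (median of ratios), and in MAR1INT minus MAR1HI from 260 and 1640 to 786 and 948 (quantile) and 806 and 1224 (median of ratios). In the other contrasts the signs of the 4 genes held in all alternatives run, though the main filter had set that of Fcgr1.

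The replicate numbers are not said to pair the libraries. Same-numbered libraries deviated with a correlation across genes of 0.15 (BaP and MAR1HI), -0.092 (BaP and MAR1INT) and -0.059 (MAR1HI and MAR1INT). With the replicate number as a block 0, 0 and 2 members and 211, 1760 and 3394 genes were called, and the calls of Fcgr1 (adjusted p = 0.00570) and Fcgr4 (0.000692) held in MAR1INT minus BaP. The level of Fcgr1 in MAR1HI, 0.289 and 0.864 reads deep per base, was the thinnest depth above 0 among the 4 genes.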
